A study of Cricetulus griseus with 16 samples.

Results

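NF-kB is a family of transcription factor dimers that switch on genes of inflammation, cell survival and cell adhesion. In resting cells inhibitor proteins called IkBs hold the dimers in the cytoplasm; a kinase complex, IKK, marks the IkBs for destruction and so lets NF-kB enter the nucleus. Several inhibitors, among them IkB alpha and A20, are themselves made from NF-kB target genes and close the loop by turning the pathway off again. The subject here is 10 genes of that system, chosen by name from the family, of 20824 genes in the count table. All 10 were found and none was absent.

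The members fall into 4 roles. Rela (ENSCGRG00001021513), Relb (ENSCGRG00001007750), Nfkb1 (ENSCGRG00001007966) and Nfkb2 (ENSCGRG00001009030) encode subunits of the dimers. The classical inhibitors are IkB alpha, which the table lists as ENSCGRG00001024024 without a symbol and the study calls NFKBIA, IkB beta (Nfkbib, ENSCGRG00001004264) and IkB epsilon (Nfkbie, ENSCGRG00001013839). IkB zeta (Nfkbiz, ENSCGRG00001019170) and Bcl3 are nuclear relatives of the IkBs that bind NF-kB on DNA. Tnfaip3 (ENSCGRG00001019749) encodes A20, a ubiquitin-editing enzyme that shuts down signalling above IKK. The table gives no gene positions, so none are printed.

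RNA was sequenced from CHO cells, an established Chinese hamster ovary line (ATCC CCL-61) grown in Ham's F-12K medium and seeded 24 h before heating. The groups were an unheated control kept at 37 °C, cultures held at 40 °C for either 1 h or 6 h, and cultures held for 1 h at 42.5 °C, with 4 biological repeats each, named here replicates A to D. Total RNA was made into TruSeq libraries and read paired end on a NextSeq instrument. The line is a single established culture, so the repeats show the spread between cultures of 1 line, and no label names a batch.

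Each library held between 10504192 and 14668365 counts. A floor of 3 counts corresponded to 0.205 to 0.286 CPM (counts scaled to the library total), and such floors cover counting error only. Levels below are CPM scaled by the trimmed mean of M values (TMM), a correction for library composition. Read counts were not divided by gene length, so levels are compared between groups for a gene and never between genes. In these bulk samples fewer cells expressing a gene and less RNA per cell cannot be told apart.

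Replicate D at 37 °C stood apart. Across genes, its log CPM correlated with the other 3 controls at r of 0.9741 to 0.9766, against 0.9948 to 0.9972 for the other 21 pairs of libraries of the same group; genes are not independent replicates. The study left out 1 control, and of 920 genes in its table of counts the other 15 libraries matched exactly while replicate D matched for 36. It was therefore left out of the tests, and for part of the values the version that includes it is given as well. DEG stands for a differentially expressed gene, one with an edgeR adjusted p under 0.05 that also changed 1.5-fold or more. These p-values measure the spread between cultures. Of the 10 members 9 passed the filter on low counts and were tested. The 3 comparisons with 37 °C share their control libraries, so their values are set side by side and not counted as independent.

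After 1 h at 42.5 °C IkB alpha fell while A20 and the nuclear relative IkB zeta rose, and the subunits stayed near their control level. The other classical inhibitors, Nfkbib and Nfkbie, had negative log2 fold changes that did not pass (-0.17, adjusted p = 0.056, and -0.27, adjusted p = 0.0607). IkB alpha RNA fell to 0.3 of its control mean, IkB zeta RNA rose 3.56-fold and A20 RNA rose 2.09-fold. Thus 2 of 9 tested members were DEGs on the higher side and 1 on the lower side, against 2.83% and 4.68% of the 10470 genes tested. By adjusted p alone the member counts were the same, 2 higher and 1 lower, against 20.8% and 22.3% of all genes. The median log2 fold change was -0.07 over the members (-0.04 with all 4 controls) and -0.0017 over all genes tested.

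After 6 h at 40 °C the fitted change was negative for all 9 tested members, and each was smaller than 1.5-fold. By edgeR 0 members were DEGs in either direction, against 1.45% of 10499 genes on the higher side and 1.66% on the lower side, and DESeq2 gave 0 members too. With no demand on the fold, 0 members were higher and 7 were lower at an adjusted p under 0.05, against 14.7% and 14.8% of all genes. DESeq2 gave 7 as well, where its shares were 12.1% higher and 12.3% lower. At an unadjusted p under 0.05 the count was 8 of 9, beside 4300 of 10499 genes. The median log2 fold change of the members was -0.35, against 0.0012 for all genes tested. With all 4 control libraries, replicate D included, 4 members, all lower, passed on adjusted p alone in place of 7, where the all-gene shares were 5.42% higher and 5.32% lower in place of 14.7% and 14.8%.

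After 1 h at 40 °C 0 members were DEGs by edgeR, against 0.276% of 10494 genes on the higher side and 0.0572% on the lower side, and 0 members by DESeq2. By edgeR's adjusted p alone there were again 0 members in either direction, against 1.07% and 0.572% of all genes. DESeq2 passed 1, IkB alpha, at an adjusted p of 0.0492 and a log2 fold change of -0.26, where 1.22% of all genes were higher and 0.638% lower. So did edgeR without the filter on low counts (-0.26, adjusted p = 0.0085), where the shares were 1.53% and 0.789% of 13940 genes. At an unadjusted p under 0.05 edgeR gave 3 members, Nfkbie higher and IkB alpha and Nfkbiz lower, beside 1556 of 10494 genes. The median was -0.02 over the members and 0.00036 over all genes.

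Direct comparisons between the heated groups tested duration (6 h against 1 h at 40 °C) and temperature (42.5 °C against 40 °C, both for 1 h). Between 1 h at 42.5 °C and 6 h at 40 °C both changed at once, so their parts cannot be told apart there. From 1 h to 6 h at 40 °C, 0 members were DEGs on the higher side and 1, Tnfaip3, on the lower side, against 0.556% and 0.728% of 10439 genes. At 42.5 °C against 40 °C, both for 1 h, 2 members were DEGs on the higher side and 1 on the lower side, against 1.75% and 3.51% of 10441 genes. The same count, 2 higher and 1 lower, was found for 1 h at 42.5 °C against 6 h at 40 °C, where the background was 2.53% and 5.72% of 10427 genes. In both comparisons with the 42.5 °C group the members concerned were Nfkbiz and Tnfaip3, higher, and IkB alpha, lower.

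By adjusted p alone more members passed between the heated groups. From 1 h to 6 h at 40 °C 0 were higher and 6 lower, against 9.45% and 9.04% of all genes tested. At 42.5 °C against 1 h at 40 °C 2 were higher and 2 lower, against 16.4% and 19.6%. At 42.5 °C against 6 h at 40 °C 5 were higher and 1 lower, against 22.5% and 24.5%.

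**Figure D1:**
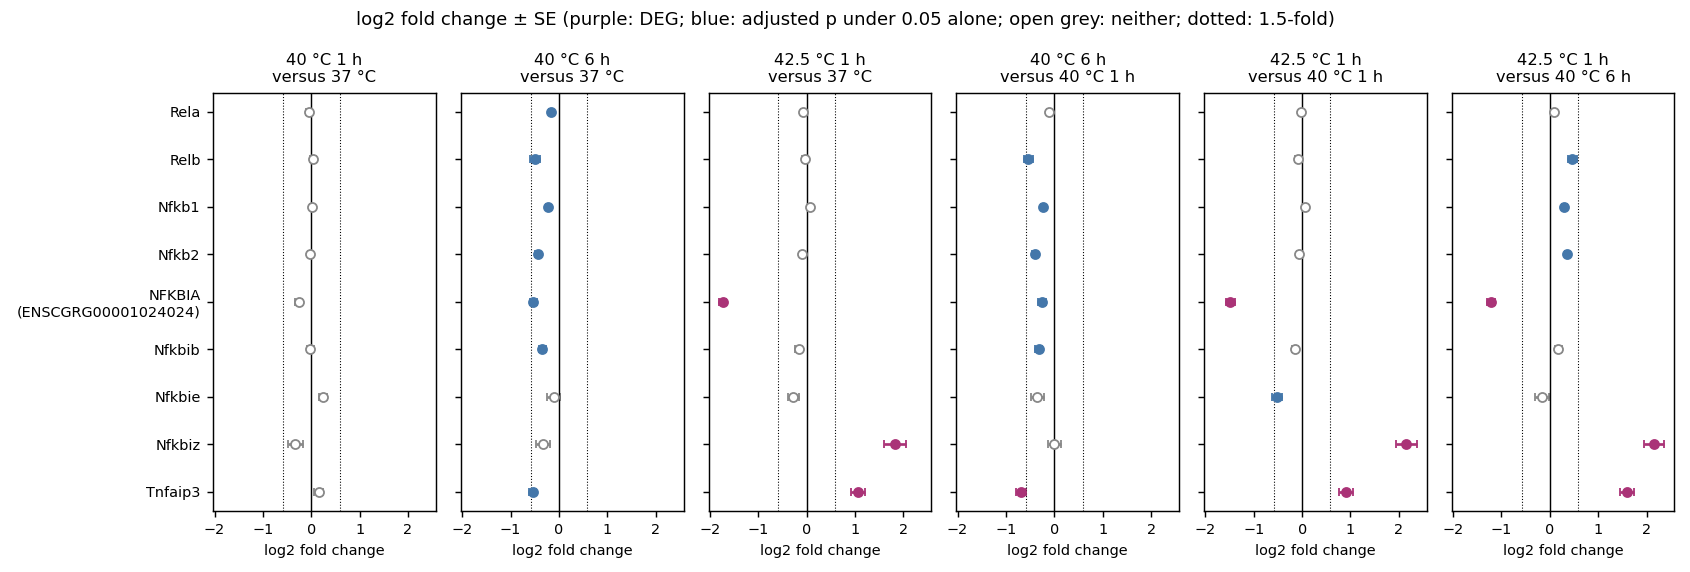
Fitted log2 fold change with its standard error for the 9 tested members (vertical axis) in the 6 comparisons, with dotted lines at a fold of 1.5 either way. At 42.5 °C IkB alpha sits at -1.74, Nfkbiz at 1.83 and Tnfaip3 at 1.06 against 37 °C, and at 40 °C for 6 h all 9 points lie between -0.54 and -0.11.

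Among the subunits, Rela encodes the main activating partner of the classical dimer. Its level was 232, 241 and 241 CPM in 37 °C replicates A to C and 225 in D, and 240, 235, 220 and 220 CPM in replicates A to D after 1 h at 40 °C. It was 223, 207, 215 and 205 CPM after 6 h at 40 °C and 231, 229, 224 and 228 CPM after 1 h at 42.5 °C. By TMM the 6 h libraries lay below every control library, and the 42.5 °C libraries lay below replicates A to C and overlapped the controls once D was counted. Rela's log2 fold change at 6 h was -0.17 (standard error 0.0464, adjusted p = 0.0113), and it no longer passed without 37 °C replicate B (-0.16, adjusted p = 0.0656) or with replicate D added (-0.15, adjusted p = 0.13). At 42.5 °C the value was -0.07 (standard error 0.0367, adjusted p = 0.127), and -0.04 (adjusted p = 0.641) with D. Scaled to library totals in place of TMM, the mean was 244 ± 6.38 CPM (SD, n = 3) at 37 °C and 220 ± 2.75 (n = 4) at 42.5 °C, a wider gap than by TMM. On totals the 6 h libraries (205 to 227 CPM) overlapped the 4 controls (218 to 248).

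Nfkb1 encodes p105, the precursor of the p50 subunit. Control replicates A to C held 106, 110 and 107 CPM and D held 91.2, and the 40 °C 1 h libraries held 109, 109, 109 and 106 CPM. After 6 h at 40 °C the values were 96.8, 88.5, 88.8 and 95.1 CPM, and after 1 h at 42.5 °C they were 114, 110, 120 and 112 CPM. Every 6 h library lay below replicates A to C, while replicate D lay within the 6 h range. The 6 h log2 fold change of -0.23 had an adjusted p of 0.0029, and with D included it was -0.17 with an adjusted p of 0.172. At 42.5 °C the mean was 114 ± 4.33 CPM (SD, n = 4) against 108 ± 2.13 (n = 3) in the controls, a difference that did not pass (0.07, adjusted p = 0.212, and 0.14, adjusted p = 0.24, with D). On library totals the means were 110 ± 4.92 and 110 ± 2.97, so that difference depended on the scaling. The 42.5 °C group exceeded the 6 h group by a log2 fold change of 0.30 (standard error 0.0494, adjusted p = 0.000122).

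Nfkb2 encodes p100, whose processing to p52 defines the alternative arm of the pathway. Controls A to C held 468, 445 and 442 CPM and D held 442, and 1 h at 40 °C gave 475, 447, 433 and 415 CPM. The 6 h libraries held 348, 313, 339 and 337 CPM and those at 42.5 °C 446, 428, 432 and 403 CPM. The 6 h group stood below all 12 other libraries, with no overlap with any group. Its log2 fold change against 37 °C was -0.44 (standard error 0.0471, adjusted p = 6.01e-06), and -0.43 (adjusted p = 0.00361) with D. Against 1 h at 40 °C it was -0.41 (adjusted p = 8.85e-05), and the 42.5 °C group exceeded the 6 h group by 0.35 (adjusted p = 9.16e-06).

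Relb encodes the partner of p52 in that alternative arm. Its levels were 37.6, 34.7 and 34.9 CPM in controls A to C and 36 in D, and 38.3, 37.3, 37 and 34.8 CPM after 1 h at 40 °C. They were 30.8, 20.4, 24 and 26.5 CPM after 6 h at 40 °C and 33.3, 32.9, 37.4 and 36.8 CPM after 1 h at 42.5 °C. As for Nfkb2, the 6 h libraries were the 4 lowest of the 16, with replicate B the lowest and A the highest among them. The 6 h change was -0.50 on the log2 scale (standard error 0.0994, adjusted p = 0.00131), and without 6 h replicate A it was -0.60 (adjusted p = 0.000118), past 1.5-fold. From 1 h to 6 h at 40 °C the change was -0.54 (standard error 0.0938, adjusted p = 0.00109), and -0.64 (adjusted p = 0.000116) without 6 h replicate A.

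Ordered by mean, Nfkb2 and Relb were lowest after 6 h at 40 °C, and by TMM their other 3 group means did not differ beyond the spread, with Nfkb2 between 427 ± 17.9 and 452 ± 14.5 CPM and Relb between 35.1 ± 2.35 and 36.8 ± 1.51 CPM (SD, n = 3 or 4). On library totals the Nfkb2 mean was 463 ± 13 CPM in controls A to C (451 to 477) and 414 ± 19.7 in the 42.5 °C group (387 to 434), without overlap until D (429) was counted, while by TMM those groups overlapped. Nfkb1 was also lowest after 6 h at 40 °C. For Rela the 6 h group was lowest at 212 ± 8.39 CPM, and the tests against the 40 °C 1 h group (229 ± 10.2, adjusted p = 0.115) and the 42.5 °C group (228 ± 2.99, adjusted p = 0.073) did not pass. The 6 h and 42.5 °C libraries of Rela did not overlap by TMM but did on totals (205 to 227 and 218 to 224 CPM), and the difference (0.09) passed in 1 fit over all 4 groups (0.10, adjusted p = 0.0404) and without 6 h replicate A (0.12, adjusted p = 0.0296), with an adjusted p of at most 0.167 over its alternatives.

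IkB alpha is the inhibitor that is degraded and remade fastest when NF-kB is activated. Controls A to C held 204, 177 and 196 CPM and D held 222. After 1 h at 40 °C the libraries held 138, 175, 152 and 179 CPM, and after 6 h 147, 113, 133 and 142 CPM. After 1 h at 42.5 °C they held 66.1, 49.6, 52.9 and 61.9 CPM. The 42.5 °C libraries were the 4 lowest of all 16, with a wide gap to the next; the 6 h libraries also lay below every control, and the 40 °C 1 h libraries overlapped both the controls and the 6 h group. On library totals the 40 °C 1 h libraries reached 181 CPM and the controls began at 183.

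By mean, IkB alpha went from 192 ± 13.8 CPM (SD, n = 3) at 37 °C to 161 ± 19.6, 134 ± 15.3 and 57.6 ± 7.65 (n = 4 each) after 1 h at 40 °C, 6 h at 40 °C and 1 h at 42.5 °C. Against the controls, the log2 fold changes in that order were -0.26 (standard error 0.0761, adjusted p = 0.114), -0.53 (standard error 0.0723, adjusted p = 5.63e-05) and -1.74 (standard error 0.0754, adjusted p = 3.01e-10). With all 4 controls the last was -1.79 (adjusted p = 1.74e-05), the 6 h value was -0.58 (adjusted p = 0.00716) and the 40 °C 1 h value -0.31 (adjusted p = 0.451). Leaving out 40 °C 1 h replicate D brought the 40 °C 1 h value to -0.32 with an adjusted p of 0.0462.

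The heated groups also differed from each other in IkB alpha. The 42.5 °C group fell by 1.48 on the log2 scale against 40 °C for 1 h (standard error 0.0894, adjusted p = 1.79e-08) and by 1.22 against 40 °C for 6 h (standard error 0.0862, adjusted p = 1.16e-08). The neighbouring groups at 40 °C, 6 h against 1 h, were close, at -0.27 (adjusted p = 0.0338). That pass was lost without 40 °C 1 h replicate B (-0.23, adjusted p = 0.1), 40 °C 1 h replicate D (-0.21, adjusted p = 0.0954), 6 h replicate B (-0.19, adjusted p = 0.112) or 6 h replicate C (-0.26, adjusted p = 0.0787).

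Nfkbib encodes IkB beta, an inhibitor that is degraded more slowly. It ranged from 36 to 38.1 CPM over the 4 control libraries, from 33.6 to 38.8 after 1 h at 40 °C, from 26.2 to 31.3 after 6 h at 40 °C and from 30.5 to 35.6 after 1 h at 42.5 °C. The 6 h and 42.5 °C libraries thus lay below all controls. At 6 h the log2 fold change was -0.35 (standard error 0.0714, adjusted p = 0.00177), and -0.35 (adjusted p = 0.0194) with all 4 controls. At 42.5 °C it was -0.17 (standard error 0.067, adjusted p = 0.056), and -0.20 with an adjusted p of 0.0395 without 42.5 °C replicate B. Without 42.5 °C replicate D it was -0.125 (adjusted p = 0.149), and with all 4 controls -0.155 (adjusted p = 0.161).

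Nfkbie, for IkB epsilon, was the member whose 40 °C 1 h libraries all lay above the controls. Controls A to C held 11.3, 11.6 and 11.4 CPM and D held 10.8, against 12.4, 13.8, 14.6 and 13.3 CPM after 1 h at 40 °C. The later 40 °C libraries held 12.8, 7.52, 11.1 and 11.1 CPM and those at 42.5 °C 11.4, 8.69, 9.21 and 8.76 CPM. Both of these groups overlapped the controls, and 6 h replicate B was the lowest library of all. On library totals the 42.5 °C libraries (8.38 to 11.1 CPM) lay below controls A to C (11.5 to 12). The 40 °C 1 h value was 0.24 on the log2 scale (standard error 0.0919, adjusted p = 0.228) and the 42.5 °C value was -0.27 (standard error 0.112, adjusted p = 0.0607), which became -0.37 (adjusted p = 0.0139) without 42.5 °C replicate A. Set directly against 1 h at 40 °C, Nfkbie was lower at 42.5 °C by a log2 fold change of -0.52 (standard error 0.105, adjusted p = 0.00139), just under 1.5-fold; without 42.5 °C replicate A it was -0.61 (adjusted p = 0.000458) and counted as a DEG.

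Of the nuclear IkB proteins, IkB zeta is known for helping NF-kB switch on a second wave of genes such as Il6. Nfkbiz was at 6.25, 5.55 and 4.74 CPM in controls A to C and 2.94 in D. It was at 4.22, 4.53, 3.84 and 5.12 CPM after 1 h at 40 °C and at 4.68, 4.36, 4.5 and 4.21 CPM after 6 h. After 1 h at 42.5 °C it reached 14.1, 21.2, 14.3 and 28.8 CPM. All 4 of those libraries were above the other 12, with replicates B and D well above A and C, while the milder groups overlapped each other and were within the range of the 4 controls. With A to C alone the 6 h libraries lay below the controls.

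The mean of Nfkbiz was 5.51 ± 0.752 CPM (SD, n = 3) at 37 °C, 4.43 ± 0.544 and 4.44 ± 0.2 after 1 h and 6 h at 40 °C and 19.6 ± 6.95 at 42.5 °C (n = 4 each). Its log2 fold change at 42.5 °C was 1.83 (standard error 0.229, adjusted p = 1.56e-05), and 2.00 (adjusted p = 0.00147) with all 4 controls. Without 42.5 °C replicate D, the highest library, it was 1.56 (adjusted p = 3.54e-07). Against 1 h and 6 h at 40 °C the 42.5 °C group was higher by 2.15 in each case (standard error 0.214 and 0.205, adjusted p = 2.3e-06 and 3.77e-07). The 40 °C groups gave -0.33 (adjusted p = 0.311) and -0.33 (adjusted p = 0.0946) against 37 °C, which became -0.15 (adjusted p = 0.93) and -0.16 (adjusted p = 0.662) with all 4 controls, and 0.0011 (adjusted p = 0.998) against each other.

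Bcl3, a nuclear IkB protein that acts as a co-regulator with p50 and p52, was at or under the floor. Its raw counts were 3, 1, 0 and 3 in the 37 °C libraries and 0, 2, 2 and 0 after 1 h at 40 °C. They were 2, 1, 1 and 2 after 6 h and 2, 0, 0 and 1 at 42.5 °C. No fold is given, and differences in Bcl3 were not detectable at this depth.

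A20 is the member whose level moved both ways. Tnfaip3 held 68.8, 69.2 and 71.2 CPM in controls A to C and 39.5 in D, and 86.8, 70, 88.4 and 64.7 CPM after 1 h at 40 °C. After 6 h at 40 °C it was at 55.6, 43.2, 47 and 46.4 CPM and after 1 h at 42.5 °C at 129, 176, 97 and 181 CPM. The 42.5 °C libraries were the 4 highest of the 16 and spread widely, with B and D above A and C as for Nfkbiz. The summed level of the heat response genes listed below was split alike at 42.5 °C, at 5150, 6730, 5010 and 8250 CPM in A to D. After 1 h at 40 °C it was 3680, 2780, 3730 and 3150 CPM, with A and C higher as for Tnfaip3, while Nfkbiz was lower in A and C. After 6 h at 40 °C it ran the other way, at 4580, 7170, 5570 and 4740 CPM. The sum was highest in B, where Tnfaip3 was lowest, and lowest in A, where Tnfaip3 was highest. At 37 °C it was 2490, 2440, 2580 and 3100 CPM, highest in D, where Tnfaip3 was lowest. A link between them was not tested. The 6 h libraries lay below controls A to C but above D, so the groups overlapped once D was counted.

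In numbers, Tnfaip3 averaged 69.7 ± 1.27 CPM (SD, n = 3) in controls A to C and 62.2 ± 15.1 (n = 4) with D. It averaged 77.5 ± 11.9 and 48.1 ± 5.3 after 1 h and 6 h at 40 °C and 146 ± 40.1 at 42.5 °C (n = 4 each). At 6 h the log2 fold change was -0.54 (standard error 0.0696, adjusted p = 3.26e-05); it was -0.38 (adjusted p = 0.185) with all 4 controls and -0.62 (adjusted p = 2.31e-06), past 1.5-fold, without 6 h replicate A. At 42.5 °C it was 1.06 (standard error 0.15, adjusted p = 4.77e-05), 1.23 (adjusted p = 0.00631) with all 4 controls and 0.94 (adjusted p = 9.54e-06) without 42.5 °C replicate D.

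Comparisons of Tnfaip3 between heated groups do not use the controls. From 1 h to 6 h at 40 °C it fell by 0.69 on the log2 scale (standard error 0.0944, adjusted p = 0.000193). At 42.5 °C it was higher than after 1 h at 40 °C by 0.91 (standard error 0.151, adjusted p = 0.000272) and higher than after 6 h at 40 °C by 1.60 (standard error 0.143, adjusted p = 1.67e-07). The order of its group means was therefore 6 h at 40 °C, 37 °C, 1 h at 40 °C and 42.5 °C, of which 37 °C and 1 h at 40 °C did not differ beyond their spread (0.15, adjusted p = 0.446, and 0.32, adjusted p = 0.853, with all 4 controls).

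**Figure D2:**
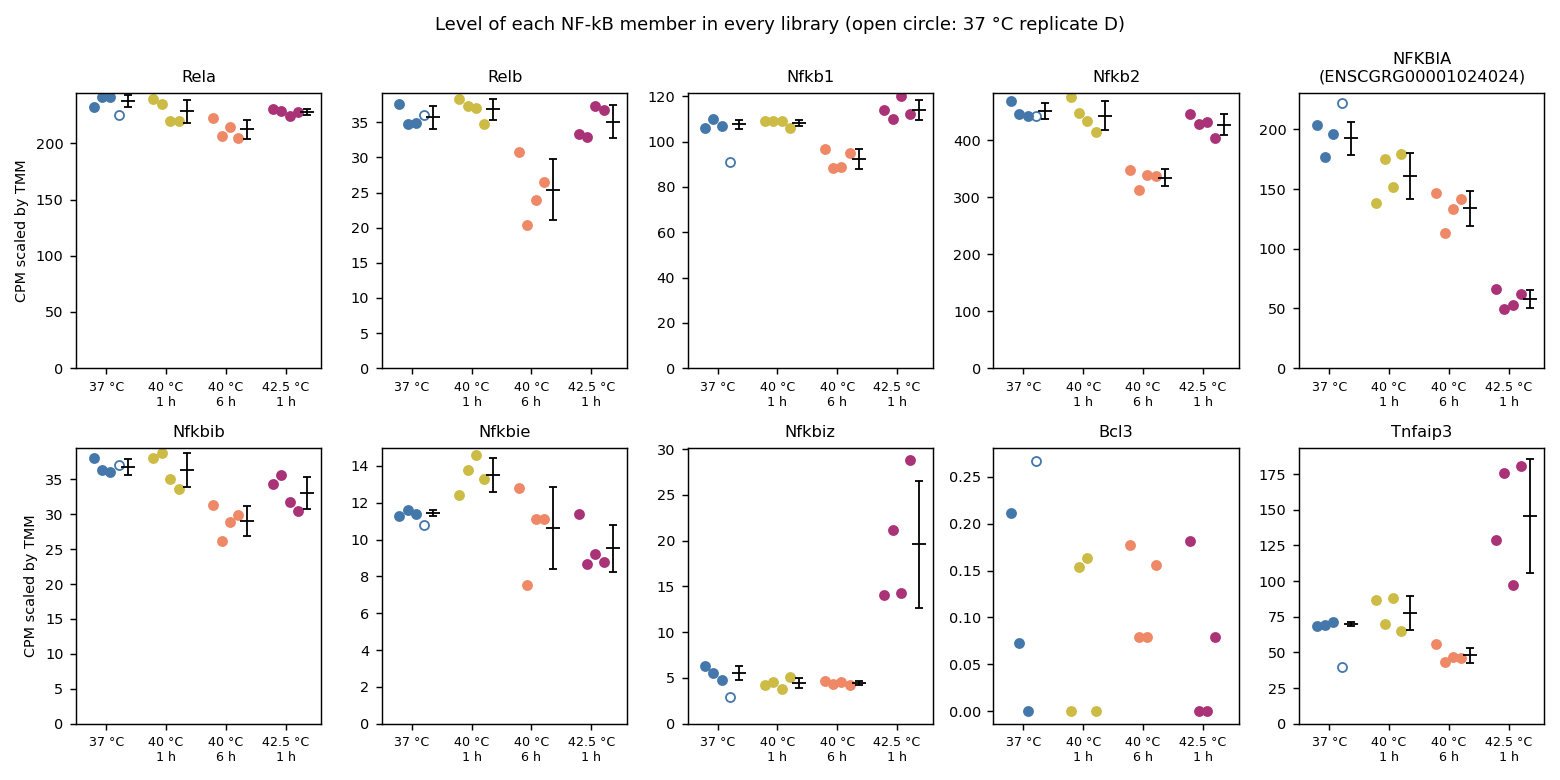
Level of each of the 10 members in all 16 libraries, in CPM scaled by TMM, by group; filled circles are libraries used in the tests, the open circle is 37 °C replicate D, and black marks give mean and SD of the filled circles (not drawn for Bcl3, at 3 counts or fewer). IkB alpha falls from 192 to 57.6 CPM between 37 °C and 42.5 °C, while Nfkbiz goes from 5.51 to 19.6 and Tnfaip3 from 69.7 to 146.

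A ratio that no library scaling changes was added after the data had been seen, namely counts of a member per 100 counts of Rela in the same library. For IkB alpha it was 80.8 ± 7.09 (SD, n = 3) at 37 °C and 25.3 ± 3.18 (n = 4) at 42.5 °C. For Nfkbiz the same groups gave 2.32 ± 0.361 and 8.61 ± 3.05, and for Tnfaip3 29.3 ± 0.479 and 63.9 ± 17.4. None of these 3 members overlapped between the groups, and a two-sided exact permutation test gave p = 0.0571 for each, the smallest that 3 libraries against 4 can give. With all 4 controls the exact p was 0.0286 for each, again the smallest possible. Nfkb1 reached the same smallest p in both cases, without overlap, at a log2 ratio of 0.14, so the exact test did not set these members apart from it. The 3 members had already been DEGs between these libraries, so their lack of overlap on the same counts adds no separate evidence. No share over all genes is given for lack of overlap in such ratios, at 42.5 °C or at 6 h. The ratios of Nfkb2, Relb, Nfkbib and Nfkbie overlapped. At 6 h at 40 °C the ratio to Rela gave log2 changes nearer to 0 than CPM, since Rela itself was lower there. They were -0.38 for Tnfaip3, -0.36 for IkB alpha, -0.33 for Relb, -0.27 for Nfkb2, -0.18 for Nfkbib, -0.15 for Nfkbiz and -0.06 for Nfkb1, while Nfkbie changed sign to 0.06. With all 4 controls Tnfaip3 gave -0.223, now with overlap, and Nfkbiz changed sign to 0.014. Further from 0 were IkB alpha (-0.44), Relb (-0.355), Nfkb2 (-0.284) and Nfkbib (-0.201), all still without overlap.

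Of 3 other Rel and IkB family genes, all found, Rel and Nfkbil1 were tested and Nfkbid was too low. By edgeR and DESeq2 alike 0 were DEGs in any comparison with 37 °C, and at an unadjusted p under 0.05 the counts were 0, 0 and 1 after 1 h at 40 °C, 6 h at 40 °C and 1 h at 42.5 °C, beside 1556 of 10494, 4300 of 10499 and 5305 of 10470 genes. Rel, which encodes the subunit c-Rel, had log2 fold changes of 0.12, 0.01 and 0.11, and of 0.30, 0.18 and 0.29 with all 4 controls, where 0 passed.

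Upstream of the IkBs, 10 of 12 listed genes of the IKK complex and related kinases were found and tested. At 40 °C 0 were DEGs by edgeR or DESeq2 after either time (1 after 1 h and 2 after 6 h at an unadjusted p under 0.05, beside 1556 of 10494 and 4300 of 10499 genes). At 42.5 °C 0 were higher and 1 lower, against 2.83% and 4.68% of all genes. By adjusted p alone 3 were higher and 4 lower, against 20.8% and 22.3%, and with all 4 controls 2 and 1, against 6.82% and 11.4%. Leaving out 1 library at a time gave 3 to 5 higher and 1 to 4 lower on adjusted p alone. The DEG was Map3k14, which encodes NIK, the kinase that starts p100 processing. Its level was 41.6 ± 2.5 CPM (SD, n = 3) at 37 °C and 21.2 ± 2.2 (n = 4) at 42.5 °C, without overlap, a log2 fold change of -0.98 (standard error 0.0796, adjusted p = 2.37e-07).

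Among 12 receptors that feed the pathway, all found, 10 were tested. The DEG counts were 0 higher in each comparison with 37 °C, and 0, 1 and 3 lower after 1 h at 40 °C, 6 h at 40 °C and 1 h at 42.5 °C, where 0.0572%, 1.66% and 4.68% of all genes were lower. DESeq2 gave the same number, against 0.0572%, 1.37% and 4.22% of all genes lower by that tool. At 40 °C for 1 h 2 had an unadjusted p under 0.05 by edgeR, beside 1556 of 10494 genes. At 42.5 °C these were both receptors for tumour necrosis factor, Tnfrsf1a (-0.71, adjusted p = 4.35e-06) and Tnfrsf1b (-1.08, adjusted p = 5.62e-07), and the Toll-like receptor gene Tlr6. Tlr6 was at 2.23 ± 0.464 CPM (SD, n = 3) in the controls and near the floor, at 0.454 ± 0.171 (n = 4), at 42.5 °C. Its log2 fold change was -2.27 (adjusted p = 3.16e-05). Tlr2 was the DEG at 6 h (-0.61, adjusted p = 0.00277). Its call was lost with all 4 controls (-0.53, adjusted p = 0.0654) and fell under 1.5-fold without 37 °C replicate A (-0.57), 6 h replicate B (-0.50) or 6 h replicate D (-0.54).

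All 20 adaptors and E3 ligases were found and tested, with 0 DEGs at 40 °C for 1 h by either tool (2 at an unadjusted p under 0.05, beside 1556 of 10494 genes), 0 higher and 2 lower at 6 h (all genes 1.45% and 1.66%), and 2 higher and 2 lower at 42.5 °C (all genes 2.83% and 4.68%). At 42.5 °C Traf6, an E3 ligase below the Toll-like and interleukin 1 receptors, rose by 1.04 (standard error 0.132, adjusted p = 1.77e-05), and so did Peli1, another E3 ligase of that branch (0.77, adjusted p = 2.84e-05). Ticam1, the adaptor TRIF, fell by 1.60 (standard error 0.261, adjusted p = 0.000165) from 2.56 to 0.837 CPM. Birc3, which encodes the ligase cIAP2 and is also a target of NF-kB, fell by 0.63 at 6 h (adjusted p = 5.79e-05) and by 0.65 at 42.5 °C (adjusted p = 0.00012). Birc3 came in under 1.5-fold without 6 h replicate B (-0.53) or, at 42.5 °C, without replicate D (-0.55). Traf1 fell by 0.63 at 6 h (adjusted p = 0.00937), and this call was lost without 37 °C replicate A (-0.50, adjusted p = 0.0762) or 6 h replicate B (-0.49).

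Of 10 listed genes of the IkB ubiquitin ligase and nuclear co-factors, 7 were found and tested, with 0 DEGs at 40 °C by either tool (0 and 2 genes at an unadjusted p under 0.05 after 1 h and 6 h, beside 1556 of 10494 and 4300 of 10499 genes). At 42.5 °C, where 2.83% of all genes were higher and 4.68% lower, 1 was higher and 0 lower, namely Crebbp, which encodes the co-activator CBP (0.83, standard error 0.083, adjusted p = 1.71e-06). Of 13 negative regulators other than A20, all found and 12 tested, 0 were DEGs at 40 °C by either tool (0 and 4 genes at an unadjusted p under 0.05, beside the same 1556 and 4300 genes). At 42.5 °C, against the same shares, 1 was higher and 0 lower, namely Zc3h12a, the RNase Regnase-1 (0.89, standard error 0.134, adjusted p = 8.51e-05), at 8.35 ± 0.481 CPM (SD, n = 3) in the controls and 15.5 ± 2.85 (n = 4) at 42.5 °C.

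Target genes are the readout most often used for NF-kB activity. Of 38 textbook targets, 7 of them members here, 36 were found. Apart from the members 29 targets were found, of which 22 were tested at 40 °C for 1 h and 21 in the other comparisons with 37 °C. In that order, 0, 0 and 2 of them were DEGs on the higher side and 0, 8 and 3 on the lower side. Over all genes the shares were 0.276%, 1.45% and 2.83% higher and 0.0572%, 1.66% and 4.68% lower. DESeq2 gave 0, 0 and 2 higher and 0, 7 and 3 lower. Its all-gene shares were 0.257%, 1.17% and 2.58% higher and 0.0572%, 1.37% and 4.22% lower. Their medians were -0.02, -0.37 and -0.10 on the log2 scale, beside the all-gene medians near 0 given above. With all 4 controls the 6 h count was 6 lower (all genes 1.01%), and leaving out 1 library at a time gave between 6 and 8 lower. Without the filter on low counts it was 9 of 24 tested (all genes 1.37%). In 1 fit over all 4 groups it was 10 of 22 tested (all genes 1.65%). At 42.5 °C the same omissions gave 2 or 3 higher and 2 to 5 lower. With all 4 controls the counts were 3 higher and 3 lower (all genes 2.46% and 3.68%).

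Chemokine genes, which attract leukocytes, held the largest changes against 37 °C among the target DEGs other than members. Ccl2 averaged 273 ± 21.2 CPM (SD, n = 3) at 37 °C, 260 ± 40.7 after 1 h at 40 °C, 98.8 ± 30.7 after 6 h at 40 °C and 267 ± 21.4 at 42.5 °C (n = 4 each). Its 6 h log2 fold change was -1.47 (standard error 0.157, adjusted p = 5.52e-06) and its 42.5 °C value -0.04 (adjusted p = 0.655), or -0.11 (adjusted p = 0.455) with all 4 controls. Ccl7 gave -1.56 (standard error 0.191, adjusted p = 2.08e-05) at 6 h and -0.12 at 42.5 °C. Cxcl1 went from 10.5 ± 0.824 CPM at 37 °C to 6.73 ± 0.805 at 6 h and 1.4 ± 0.437 at 42.5 °C, with log2 fold changes of -0.64 (adjusted p = 0.000921) and -2.88 (standard error 0.177, adjusted p = 1.38e-08). Without 6 h replicate C the 6 h change of Cxcl1 was -0.56, under 1.5-fold.

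The remaining target DEGs were picked out after their values had been seen. At 42.5 °C the 2 on the higher side were Ptgs2 (1.09, adjusted p = 6.64e-05), which encodes the prostaglandin enzyme COX-2, and the cytokine gene Il6 (0.88, adjusted p = 0.000252). The 3 on the lower side were Cxcl1, Birc3 and Gadd45b (-1.04, adjusted p = 2.92e-06). At 6 h the list was completed by the adhesion genes Icam1 (-0.69) and Vcam1 (-0.62), the cytokine gene Lif (-0.68), Birc3 and Traf1. Birc3 and Traf1 were also counted among the adaptors and E3 ligases above, where the fits that lost their calls are given. Vcam1 failed by DESeq2 (adjusted p = 0.0612), with all 4 controls (adjusted p = 0.057), and without 37 °C replicate B, 37 °C replicate C or 6 h replicate D (-0.56, -0.46 and -0.57). Lif was under 1.5-fold with all 4 controls (-0.56).

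Genes whose pattern lay nearest to a member over the 12 heated libraries were found by the root mean square difference in log2 CPM from the control mean, among 10627 genes. For IkB alpha they were Plpp7 (0.276), Taf1d (0.291), Ddx28 (0.297), Abtb1 (0.315) and Rnf145 (0.318), against a median of 1.09 over all other genes. For Nfkbiz they were Zkscan14 (0.305), Sgk1 (0.316), Chac1 (0.324), Skil (0.343) and Ankrd61 (0.362), against 1.08. For Tnfaip3 they were ENSCGRG00001012135 (0.195), which has no symbol in the table, Zc3h12a (0.3), Il6 (0.304), Phlda1 (0.315) and Dlx2 (0.328), against 0.737. Of the Tnfaip3 neighbours, Zc3h12a and Il6 also stand among the negative regulators and targets named above.

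Heat response genes served as a check of the heating. Of 6 listed 5 were found, and 4 were DEGs on the higher side and 0 on the lower side in each comparison with 37 °C, against 0.276%, 1.45% and 2.83% of all genes on the higher side. Dnajb1, a co-chaperone of HSP70, rose by 1.63, 0.65 and 3.79 on the log2 scale after 1 h at 40 °C, 6 h at 40 °C and 1 h at 42.5 °C. Hsph1, a nucleotide exchange factor for HSP70, rose by 1.08, 1.21 and 2.96, and the small heat shock protein gene Hspb1 by 1.11, 1.53 and 2.98. Zfand2a rose by 1.74 and 4.32 at 40 °C for 1 h and at 42.5 °C, and Hspa5, the chaperone BiP, rose by 1.13 at 40 °C for 6 h. None of the 4 calls at 40 °C for 1 h passed with all 4 controls, where Hsph1 gave 1.06 (adjusted p = 0.127), Dnajb1 1.57 (adjusted p = 0.114), Zfand2a 1.73 (adjusted p = 0.127) and Hspb1 0.82 (adjusted p = 0.408). The Dnajb1 call at 6 h was under 1.5-fold without 6 h replicate B (0.54), and it did not pass in 1 fit over all 4 groups (0.65, adjusted p = 0.0928).

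Other properties of the libraries moved with the groups as well. The mitochondrially encoded share of counts was 3.06%, 2.23% and 2.31% in controls A to C and 3.31% in D, and 3%, 2.59%, 2.39% and 3.12% after 1 h at 40 °C. It was 2.69%, 3.54%, 3.25% and 3.08% after 6 h at 40 °C and 3.71%, 3.8%, 3.72% and 3.55% at 42.5 °C, above all other libraries. Of 13 mitochondrially encoded genes found, 0, 2 and 9 were DEGs on the higher side against 37 °C after 1 h at 40 °C, 6 h at 40 °C and 1 h at 42.5 °C, beside 0.276%, 1.45% and 2.83% of all genes. With all 4 controls the counts were 0, 1 and 4, beside 0.0191%, 1.07% and 2.46% of all genes. Leaving out 1 library at a time gave 5 to 12 at 42.5 °C, with 5 without 37 °C replicate B and 12 without 37 °C replicate A. At 6 h it gave 1 to 3, with 1 without 37 °C replicate B, 37 °C replicate C or 6 h replicate B. Their part in the changes of the members was not tested.

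The label of an ovarian line was read against cell type markers. Of 7 ovarian granulosa and theca markers, Foxl2, Cyp19a1 and Fshr had 0 counts in all 16 libraries and Cyp17a1 at most 1. Summed over the 7, the level was 10.3, 7.95 and 8.45 CPM in controls A to C and 11.2 in D, and 11.2, 11.3, 9.87 and 9.62 CPM after 1 h at 40 °C. It was 12.6, 16.7, 15.5 and 11.7 CPM after 6 h and 11.2, 13.1, 12 and 15.2 CPM at 42.5 °C. Of the 7 markers 3 were tested, and 0 were DEGs after 1 h at 40 °C. At 6 h and at 42.5 °C 1 was a DEG, higher, against 1.45% and 2.83% of all genes. This was Star, a cholesterol carrier, which rose by 0.76 at 6 h (adjusted p = 0.00094) and by 0.99 at 42.5 °C (adjusted p = 0.000201). The median of the 3 was 0.65 at 6 h and 0.038 at 42.5 °C. With replicate D included, Amh gave 0.501 and Inha 0.251 at 6 h, and -0.317 and -0.114 at 42.5 °C, and neither was a DEG. The part of Star in the members' changes was not tested.

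Of 8 mesenchymal and epithelial markers 6 were found. Vim had a median of 2210 CPM and Cdh1 of 2.19 CPM, while Col1a1 had at most 2 counts and Epcam at most 1. Of these, 4 were tested and 0 were DEGs in any comparison with 37 °C by edgeR or DESeq2 (at most 2 at an unadjusted p under 0.05, in the comparison where 5305 of 10470 genes had one). Leukocyte markers (6 of 8 found) had at most 1 count in any library, with Adgre1 at 0, and the 4 endothelial markers at most 5 counts, with Kdr at 0.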

How the data were processed

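RNA of 16 cultures was measured. The authors used CLC Genomics Workbench to trim reads, align them to the hamster build CHOK1GS_HDv1 and count them per gene, and they deposited unnormalised counts, which were the input; the annotation release and the handling of reads with several mapping places are not stated. No comparison of the authors was used as a value.

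The 10 members were found by name or identifier. They and the lists were chosen with earlier results of these data known. The 6 comparisons were fitted on the whole table with edgeR 4.0.16 in R 4.3.3 (filterByExpr, TMM, two-sided quasi-likelihood test of 2 groups, Benjamini-Hochberg over all genes tested), after a check on simulated counts; adjusted p values without another tool's name come from it. 37 °C replicate D was left out because the study's own table lacks it.

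Alternatives were DESeq2 1.42.0 (its size factors, and its Wald test), no filter, a joint fit of the 4 groups, a block for the replicate letter, all 4 controls, each library left out in turn, adjusted p alone, CPM on library totals and, added after the data were seen, counts per 100 Rela counts.

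Named were all members and all target DEGs against 37 °C. Of each other list at most 5 DEGs were named, by largest change against 37 °C. For IkB alpha, Nfkbiz and Tnfaip3 the 5 nearest genes were named (log2 CPM, prior count 2).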

Additional observations from a re-analysis of the deposited data

Results flagged for a closer look

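In 2 of 36 groups of 4 libraries checked, the highest or lowest library of a member lay far from the others, where chance alone would pick out about 1 in 20 groups. Tnfaip3 was at 39.5 CPM in 37 °C replicate D, against 68.8 to 71.2 CPM in replicates A to C, and its gap to the nearest library took up 0.925 of the range of the group. Nfkb2 was at 468 CPM in 37 °C replicate A, against 442 to 445 CPM in the other controls, a gap of 0.863 of the range.

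For 2 members the fitted effects of heated groups against 37 °C differed in sign, and the direct comparison of the heated groups met the DEG rule, adjusted p and 1.5-fold together. Tnfaip3 differed by a log2 fold change of -0.692 between 6 h and 1 h at 40 °C, whose values against 37 °C were -0.542 and 0.154. It differed by 1.599 between 1 h at 42.5 °C and 6 h at 40 °C, with values of 1.061 and -0.542. For Nfkbiz the 42.5 °C group exceeded 1 h at 40 °C by 2.152, with values of 1.826 and -0.326, and 6 h at 40 °C by 2.15, with values of 1.826 and -0.328. Of the values against 37 °C, 0.154, -0.326 and -0.328 did not pass on adjusted p. By adjusted p alone 3 more members had such a difference, under 1.5-fold: Nfkbie between 42.5 °C and 1 h at 40 °C (-0.515, with -0.273 and 0.243 against 37 °C), Nfkb1 between 42.5 °C and 6 h at 40 °C (0.296, with 0.071 and -0.227) and between 6 h and 1 h at 40 °C (-0.231, with -0.227 and 0.008), and Relb between 6 h and 1 h at 40 °C (-0.541, with -0.5 and 0.045). Of these values against 37 °C only -0.227 and -0.5 passed on adjusted p. No share over all genes is given for either count of members, so neither is read as particular to them.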

How the results depend on the processing

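Over the alternatives for the members' log2 fold changes, the ratio to Rela included, 738 values were counted as the same. For a fit this meant the same direction and standing under the DEG rule, and for the ratio a similar size. Of the others 20 were newly called, either as DEGs or by adjusted p alone while under 1.5-fold. A further 17, all from fits, changed sign and 5, all ratios, moved. Some ratios with controls A to C also had the opposite sign to the main fit and are not among the 17. At 6 h this held for Nfkbie (0.058 against -0.11) and at 42.5 °C for Relb (0.04 against -0.031). At 1 h at 40 °C it held for Nfkb2 (0.027 against -0.029) and Nfkbib (0.038 against -0.017). By adjusted p alone, 15 of 702 values from alternative fits newly passed and 8 no longer did: IkB alpha from 1 h to 6 h at 40 °C in 4 fits, and at 6 h against 37 °C Rela in 2 and Nfkb1 and Tnfaip3 in 1 each. At 42.5 °C against 37 °C the calls of IkB alpha (-1.81 to -1.67), Nfkbiz (1.56 to 2.00) and Tnfaip3 (0.92 to 1.23) held in the main fit and all 13 alternative fits, with adjusted p of at most 1.74e-05, 0.00147 and 0.00631.

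With adjusted p alone in place of the added fold of 1.5, the called members numbered 7 for 6 h at 40 °C against 37 °C, 6 for 6 h against 1 h at 40 °C and 6 for 42.5 °C against 6 h at 40 °C, because the rule asks for less. Leaving out 1 library at a time gave 0 to 2 called members in the first and 1 to 2 in the second, with 2 without 6 h replicate A; the cause was not tested.

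Changes of sign among the fits were found for values near 0 that passed no test, and the cause was not tested. For 1 h at 40 °C against 37 °C the replicate block gave 0.0007 for Nfkb2 and 0.0201 for Nfkbib. For Nfkbiz between 6 h and 1 h at 40 °C, DESeq2 size factors gave -0.0003 and no filter -0.0014. Leaving out 1 library at a time gave -0.0064 to 0.024 for Nfkb1 and -0.0484 to 0.0169 for Nfkbib (1 h at 40 °C against 37 °C), -0.2042 to 0.0258 for Nfkbie (6 h against 37 °C), -0.0582 to 0.0062 for Relb (42.5 °C against 37 °C), -0.0577 to 0.0779 for Nfkbiz (6 h against 1 h at 40 °C) and -0.0344 to 0.0084 for Rela (42.5 °C against 1 h at 40 °C).

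Libraries of the same letter were correlated at a mean r of 0.0483 after removal of group means (21 pairs, different letters -0.0161, 63 pairs), and 5 of 15 correlated best with their own letter. Between 1 h at 40 °C and 37 °C the mean was 0.134 for 3 same-letter pairs, the lowest 0.0739, and -0.0447 for 9 others. With that letter as a block, the number of called members was the same in all 6 comparisons. At 1 h at 40 °C Tnfaip3 (0.23, adjusted p = 0.0137, against up to 0.853 over its other fits) and IkB alpha (-0.32, adjusted p = 0.0039, against up to 0.451) passed on adjusted p, under 1.5-fold. The all-gene shares on adjusted p alone rose there too, to 3.63% higher and 2.41% lower from 1.07% and 0.572%. Of the other listed genes, Vcam1 at 6 h (-0.59, adjusted p = 0.0506, up to 0.132 over its other fits), Tlr2 at 6 h (-0.55) and Birc3 at 42.5 °C (-0.55), the last 2 by fold, were no longer DEGs with the block, and Csf3 at 6 h became 1 (-1.09, adjusted p = 0.0444, up to 0.274 over its other fits). Csf3 was also a DEG at 6 h in 1 fit over all 4 groups (-0.91, adjusted p = 0.0466). Among all genes, the 29 higher and 6 lower DEGs at 1 h at 40 °C became 2 and 1 with all 4 controls, and the 174 lower at 6 h became 106; the cause was not tested.

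Depth limits Bcl3 and Nfkbid, which were too low to test.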
